A study of Mus musculus with 15 samples.

Results

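The genes of the mitochondrial protein import machinery were followed through mouse oocyte maturation. They were chosen by name: every probe set annotated with exactly 1 symbol starting with Timm or Tomm, or with Mtx1, Samm50, Pam16, Grpel1, Grpel2, Pmpca, Pmpcb, Immp1l, Immp2l, Oxa1l or Chchd4. This gave 68 probe sets for 34 genes, of 18193 genes that had such a probe set. Immp2l had none and was not analysed. For a gene with several probe sets, the brightest on average over the 15 arrays stands for the gene.

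Most mitochondrial proteins are encoded in the nucleus, made in the cytosol and carried across the mitochondrial membranes. The TOM complex is the entry gate of the outer membrane, and the SAM complex inserts barrel-shaped proteins there. Small Tim chaperones and the Chchd4 relay serve the intermembrane space, TIM23 and its motor pull proteins with a cleavable presequence into the matrix, TIM22 inserts carriers, and peptidases and Oxa1l finish the process. Oocytes carry very many mitochondria, inherited by the embryo, and maturation from the germinal vesicle (GV) stage to metaphase II (MII) runs largely without new transcription while stored maternal mRNAs are translated, deadenylated and degraded.

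Oocytes came from female B6D2F1 mice, a hybrid strain, primed with PMSG for 48 h, and cumulus cells were removed with hyaluronidase in every group. The MII groups were in vitro matured oocytes (16 h of culture) of d20, prepubertal mice (3 arrays), d26, peripubertal mice (3 arrays) and adult mice of 7 to 8 weeks (2 arrays), and in vivo matured oocytes, taken after hCG, of d26 mice (2 arrays) and adult mice (3 arrays). GV oocytes came from adult mice only (2 arrays). Each array held poly(A) RNA from a pool of 150 oocytes after 2-cycle amplification. The d20 and d26 ages have no GV group of their own. A level below is a quantile-normalized log2 intensity and a difference is a log2 difference of such levels.

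The arrays differed in brightness before normalization. On the GV arrays 9696 to 9819 probe sets exceeded an intensity of 200, against 4882 to 6734 on 9 of the MII arrays and 2615 to 3042 on the other 4, called dim here (adult in vivo 1, adult in vitro 2, d26 in vitro 2 and d26 in vitro 3). Without these 4 arrays, 1 adult in vitro and 1 d26 in vitro array remained. Differences of these 2 groups in that setting are therefore not replicated. The ratio of 3' to 5' Gapdh probe sets ranged between 2.27 and 82.3 over all arrays. The d26 in vivo arrays had the highest ratios, 82.3 and 68.0, against 12.6 to 26.8 in d26 in vitro arrays. The part of this ratio in results that use the d26 in vivo arrays was not tested. Of 12 oocyte markers, 11 to 12 lay above the filter level on every array. Of these, 7 were lower at MII than at GV in both adult comparisons, with summed intensities of 32587 to 35951 in vivo and 26010 to 35059 in vitro, against 71506 to 82150 in GV arrays. Of 8 leukocyte markers, 1 (Ctss) was higher in adult in vivo MII arrays than in GV arrays, and their summed intensities were 216 to 649 in adult in vivo MII arrays and 141 to 146 in adult in vitro MII arrays, against 53.5 to 67.1 in GV arrays. Of 7 oviduct markers, 2 were higher in vivo and 1 in vitro, with sums of 2832 to 5292 in vivo and 3383 to 3433 in vitro, against 1397 to 1726 in GV arrays. Most of each sum came from Cdh1, which averaged 11.61 in vivo, 11.70 in vitro and 10.50 in GV arrays. Among the others, Ovgp1 averaged 7.36 in vivo, 4.18 in vitro and 3.73 in GV arrays, and Krt8 4.38, 3.06 and 5.63. Of 11 cumulus markers, 1 was higher in vivo, 2 were in vitro and 0 were lower. Their sums were 279 to 745 in vivo and 348 to 374 in vitro, against 203 to 252 in GV arrays. Among them Gja1 averaged 6.94 in vivo, 2.20 in vitro and 5.91 in GV arrays, and Fshr 2.86, 3.50 and 4.28. These marker calls came from the fit without a filter. There, of 12028 genes above the filter level, 1309 were lower and 1914 higher in vivo, and 1362 and 1932 in vitro. No marker stood at 0, since every deposited value was positive, and the part of other cells in the import gene results was not tested.

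Promoter windows are shown for members that moved in opposite directions, so that their letters can be read beside the levels. RefSeq windows on GRCm38.p6, with 250 bases before and 50 bases after the annotated start, existed for 30 of the 34 genes. The NRF1 motif (the letters GCGCA, any base, then GCGC) and the GABPA motif CCGGAAGT, both known from nuclear genes of mitochondrial proteins, were searched on both strands, and matches are in capitals. The windows are Timm17a at chr1:135313688-135313987 (minus strand), which fell furthest at MII, Pam16 at chr16:4624897-4625196 (minus strand), which also fell, and Timm8b at chr9:50603651-50603950 (plus strand) and Timm29 at chr9:21592472-21592771 (plus strand), which both rose.
Timm17a: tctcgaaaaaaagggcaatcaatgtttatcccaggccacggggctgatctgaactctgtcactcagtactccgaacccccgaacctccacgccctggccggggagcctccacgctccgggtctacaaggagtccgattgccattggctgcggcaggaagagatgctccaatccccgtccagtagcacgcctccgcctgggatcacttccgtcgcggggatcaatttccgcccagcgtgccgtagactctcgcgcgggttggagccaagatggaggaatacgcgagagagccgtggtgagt
Pam16: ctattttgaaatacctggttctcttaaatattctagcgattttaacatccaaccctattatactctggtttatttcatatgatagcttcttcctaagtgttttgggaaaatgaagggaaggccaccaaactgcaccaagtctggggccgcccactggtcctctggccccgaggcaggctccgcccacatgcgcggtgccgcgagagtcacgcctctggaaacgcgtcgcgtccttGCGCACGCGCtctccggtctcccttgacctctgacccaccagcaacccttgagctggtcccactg
Timm8b: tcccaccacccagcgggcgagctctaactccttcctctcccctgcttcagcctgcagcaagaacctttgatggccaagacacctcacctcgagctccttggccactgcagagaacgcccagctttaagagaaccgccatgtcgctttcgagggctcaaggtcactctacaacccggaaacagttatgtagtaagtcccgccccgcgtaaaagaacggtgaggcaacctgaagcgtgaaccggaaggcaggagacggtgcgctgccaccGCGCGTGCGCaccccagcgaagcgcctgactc
Timm29: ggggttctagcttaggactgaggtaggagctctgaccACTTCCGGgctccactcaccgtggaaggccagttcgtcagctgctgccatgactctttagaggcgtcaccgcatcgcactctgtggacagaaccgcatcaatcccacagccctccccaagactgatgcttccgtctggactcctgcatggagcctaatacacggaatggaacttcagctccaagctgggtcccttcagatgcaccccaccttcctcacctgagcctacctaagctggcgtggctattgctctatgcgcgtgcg

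The window of Timm17a held neither motif, those of Pam16 and Timm8b held NRF1, and that of Timm29 held GABPA. Over the 32 windows of the import genes, 15.6% held NRF1 and 25% GABPA, against 4.60% and 3.89% of all 32851 RefSeq windows and 6.38% and 5.15% of windows of protein-coding genes. Among tested genes that had a window, NRF1 was found in 1 of 3 that rose in vivo, 2 of 10 that fell and 2 of 13 that did not pass. GABPA was found in 1, 2 and 4 of the same groups of genes. A match describes these letters only.

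Adult MII oocytes had less mRNA signal than GV oocytes for 10 import genes after maturation in vivo and for 8 of the same 10 after maturation in vitro. The largest differences belonged to Timm17a, a core subunit of the TIM23 translocase, which was 153-fold lower in vivo and 230-fold lower in vitro. Its adult MII levels of 1.64 to 4.14 lay around the filter level of 3.07, and after adding 16 to every normalized intensity it was 62.8-fold and 67.8-fold lower. Mtx1, Timm9, Grpel1, Timm10b, Tomm20, Timm17b and Pam16 also fell in both, spanning the outer membrane, the intermembrane space, the translocase and its motor. Timm21, Timm29 and Timm8b rose in both, and Tomm34 rose in vivo. No import gene passed in opposite directions in the 2 comparisons, which share the same GV arrays.

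Of the 34 genes, 30 passed the filter on low values and 4 (Tomm40, Tomm20l, Timm13 and Timmdc1) did not. None passed only through the GV arrays. In adult in vivo MII minus GV, 10 of the 30 were lower (33.3%) and 4 higher (13.3%) at an adjusted p below 0.05 in limma, against 12.3% of 12028 genes lower and 18.3% higher. In adult in vitro MII minus GV, 8 were lower (26.7%) and 3 higher, against 12.9% of genes lower and 18.4% higher. The median difference of the import genes was -0.79 in vivo and -0.72 in vitro, beside 0.26 and 0.13 for all genes. With no filter and all 34 genes counted, 11 were lower and 4 higher in vivo, and 9 lower and 3 higher in vitro. In that fit 1309 of the 12028 genes above the filter were lower and 1914 higher in vivo, and 1362 and 1932 in vitro. Of all 45037 probe sets, dim ones included, 2716 were lower and 3128 higher in vivo, and 2741 and 3210 in vitro. All MII arrays lay below both GV arrays for 13 of the 30 genes in vivo and above for 6, where 24.2% and 34.3% of genes did. In vitro the numbers were 17 and 8, where 30.6% and 38.1% of genes did. RNA was captured by its poly(A) tail, so a shorter tail, fewer molecules per oocyte and fewer oocytes cannot be told apart.

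**Figure D1:**
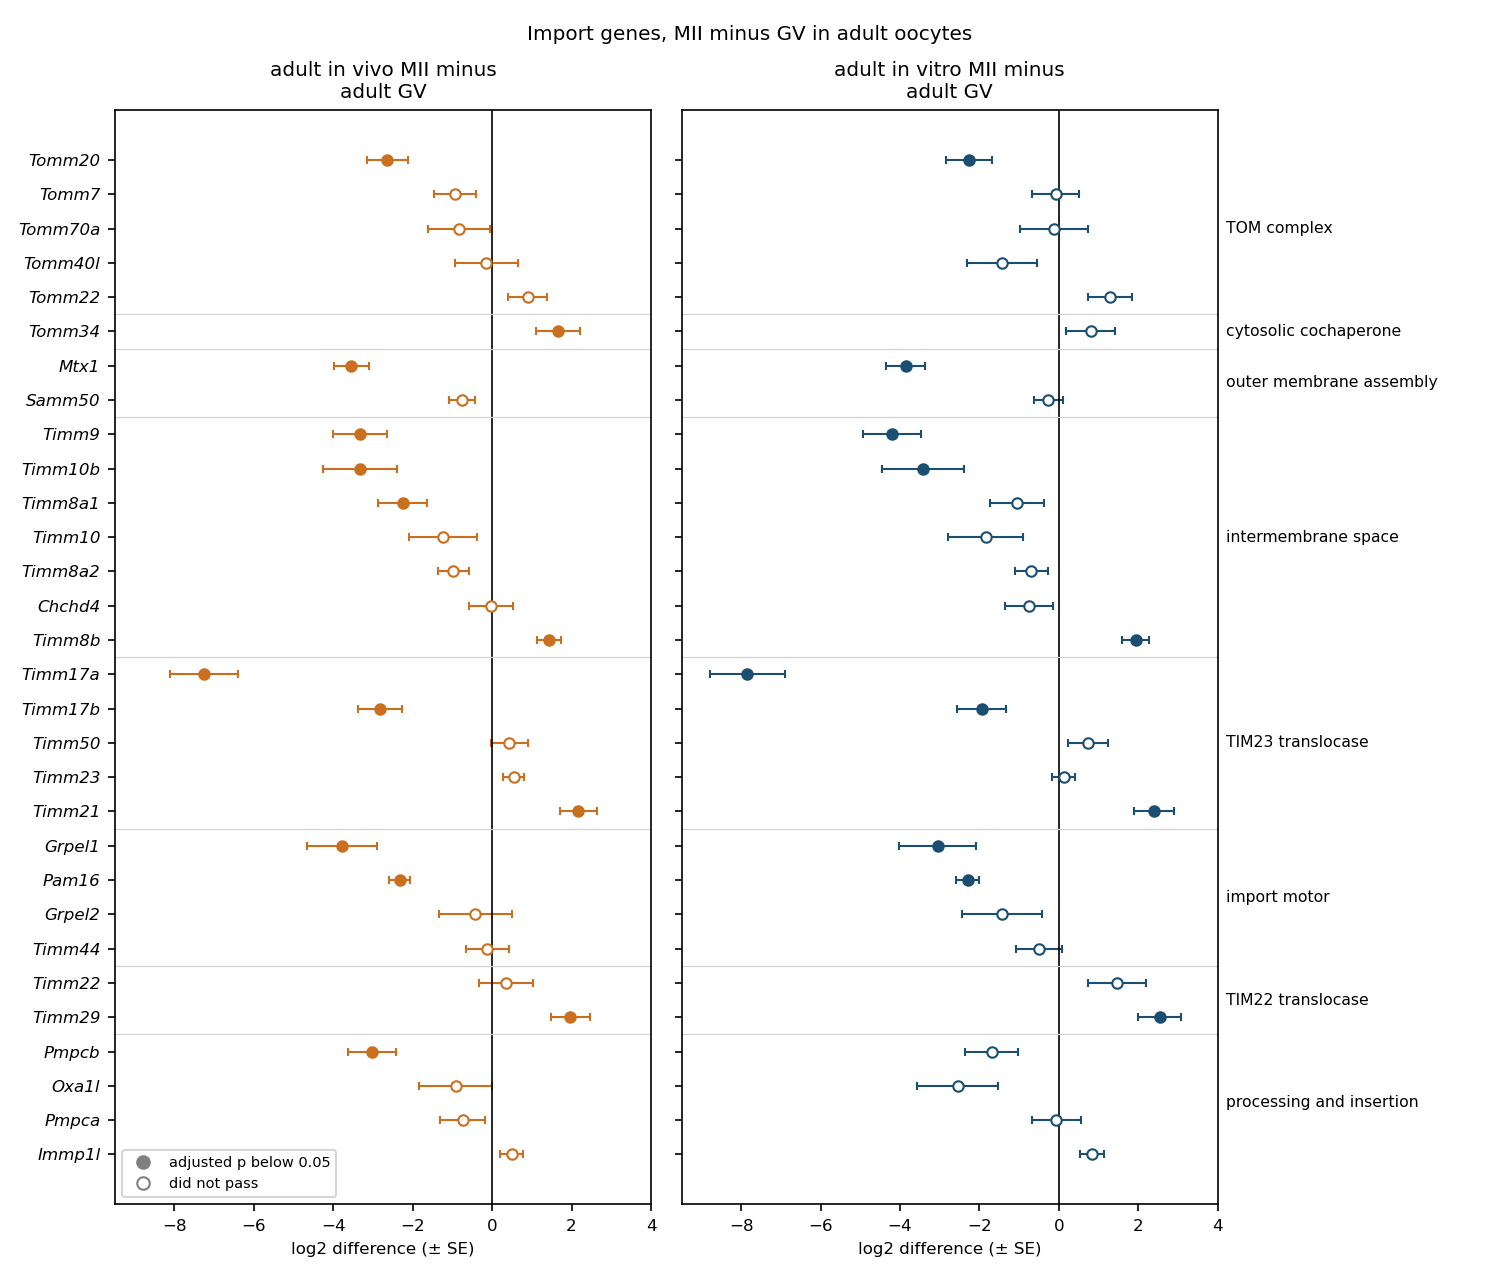
Log2 differences of the 30 tested import genes, adult in vivo MII minus GV and adult in vitro MII minus GV, arranged by role, with bars of 1 standard error; filled points passed at adjusted p below 0.05 in limma. Timm17a lies at -7.25 and -7.84, far to the left of the other members, and Timm21, Timm29 and Timm8b lie to the right of 0 in both comparisons.

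Counts by role here and below rest on few genes each. Of all genes, 12.3% were lower and 18.3% higher in vivo, and 12.9% and 18.4% in vitro. At the outer membrane entry gate, 1 of 5 tested TOM genes fell in each comparison and none rose. This was Tomm20, a receptor that binds presequences. Its levels stood at 6.49, 5.79 and 6.36 in adult in vivo MII arrays and 6.07 and 7.11 in adult in vitro MII arrays, against 9.11 and 8.59 in GV arrays. Every MII array lay below both GV arrays. The difference was -2.64 in vivo (SE 0.52, adjusted p = 0.00164) and -2.26 in vitro (SE 0.57, adjusted p = 0.00804). The call in vitro was lost without GV 1 (adjusted p = 0.0813) and without adult in vitro 1 (adjusted p = 0.0714).

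The other TOM genes did not pass with their representative probe sets. Tomm22, the central receptor, differed by 0.89 in vivo and 1.29 in vitro. Tomm70a, a receptor for carrier precursors, differed by -0.83 in vivo and -0.12 in vitro, and the small subunit Tomm7 by -0.94 and -0.08. Tomm40l, a paralog of the channel protein Tomm40, had levels of 4.81, 3.02 and 3.62 in adult in vivo MII arrays and 3.71 and 1.35 in adult in vitro MII arrays, against 4.04 and 3.89 in GV arrays. These Tomm40l levels overlapped between in vivo MII and GV arrays. Tomm40 itself, below the filter, had levels of -0.17, 3.63 and 3.38 in vivo and 1.94 and 1.20 in vitro, against 4.17 and 4.78 in GV arrays, and its differences of -2.20 and -2.91 did not pass in the fit without a filter. Tomm20l, also below the filter, had levels of 2.28, 2.73 and 0.78 in vivo and 1.12 and 4.01 in vitro, against 0.60 and 1.32 in GV arrays, and overlapped. Without the 4 dim arrays Tomm7 (-1.53, adjusted p = 0.00647) and Tomm70a (-1.52, adjusted p = 0.0109) also fell in vivo.

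Tomm34, a cytosolic cochaperone that binds Hsp70 and Hsp90, passed in vivo and did not pass in vitro. Its levels stood at 8.27, 10.13 and 9.89 in adult in vivo MII arrays and 8.96 and 8.19 in adult in vitro MII arrays, against 8.15 and 7.41 in GV arrays. Every adult MII array lay above both GV arrays, the closest in vivo being a dim one. The difference was 1.65 in vivo (SE 0.56, adjusted p = 0.0401) and 0.80 in vitro (SE 0.61, adjusted p = 0.384), and the adult in vitro minus in vivo difference did not pass. The in vivo call was lost without either GV array (adjusted p = 0.0731 without GV 1 and 0.291 without GV 2), and without adult in vivo 2 or 3 or d20 in vitro 1 or 3 (adjusted p = 0.0513 to 0.132). With the sample numbers of the titles as a block it was 1.59 (adjusted p = 0.0556).

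In the assembly machinery of the outer membrane, Mtx1 fell in both comparisons. Mtx1 (metaxin 1) is a partner of Samm50. Its levels stood at 6.18, 6.51 and 6.06 in vivo and 6.71 and 5.16 in vitro, against 10.03 and 9.55 in GV arrays. Every MII array lay below both GV arrays, and the difference was -3.54 in vivo (SE 0.45, adjusted p = 6.5e-05) and -3.85 in vitro (SE 0.49, adjusted p = 8.2e-05). Another Mtx1 probe set, 1418522_at, differed by -1.22 (adjusted p = 0.0661) in vivo and -1.33 (adjusted p = 0.0644) in vitro. Samm50, the barrel-inserting subunit, differed by -0.75 in vivo and -0.27 in vitro and did not pass. Without the 4 dim arrays Samm50 fell in vivo (-1.08, adjusted p = 0.00481).

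In the intermembrane space, 7 of 8 genes were tested. In vivo 3 fell (Timm9, Timm10b and Timm8a1) and 1 rose (Timm8b), and in vitro 2 fell (Timm9 and Timm10b) and 1 rose (Timm8b). Timm9, which forms hexameric chaperones with Timm10, had levels of 5.63, 4.74 and 4.98 in vivo and 4.78 and 3.70 in vitro, against 8.52 and 8.37 in GV arrays. Every MII array was lower than both GV arrays. The Timm9 difference was -3.33 in vivo (SE 0.67, adjusted p = 0.00185) and -4.21 in vitro (SE 0.74, adjusted p = 0.00069). Its partner Timm10 differed by -1.23 (adjusted p = 0.346) and -1.84 (adjusted p = 0.171). A dim d26 array read 2.06 for this gene. Without the 4 dim arrays Timm10 fell in vivo (-1.05, adjusted p = 0.0266). In vitro, with 1 adult MII array left, it differed by -1.58.

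Timm10b, a small Tim that associates with the TIM22 complex, had levels of 5.18, 3.34 and 4.55 in vivo and 5.24 and 3.27 in vitro, against 7.35 and 8.02 in GV arrays. The MII levels varied but all lay below GV. The difference was -3.33 in vivo (SE 0.94, adjusted p = 0.016) and -3.43 in vitro (SE 1.03, adjusted p = 0.0216). Without GV 1 the adjusted p was 0.0616 in vivo and 0.0652 in vitro, and without GV 2 it was 0.138 and 0.139. The call was also lost without adult in vivo 2 in vivo (adjusted p = 0.0556) and without adult in vitro 2 in vitro (adjusted p = 0.19).

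The Timm8 paralogs, partners of Timm13, went different ways. Timm8a1 on the X chromosome had levels of 7.32, 6.46 and 6.87 in vivo and 7.34 and 8.82 in vitro, against 9.06 and 9.22 in GV arrays. Timm8b on chromosome 9 had levels of 9.64, 9.05 and 9.44 in vivo and 9.73 and 10.03 in vitro, against 7.99 and 7.89 in GV arrays. All adult MII arrays were below GV for Timm8a1 and above GV for Timm8b. Timm8a1 fell by 2.26 in vivo (SE 0.62, adjusted p = 0.0134) and differed by -1.06 in vitro (SE 0.68, adjusted p = 0.284). Timm8b rose by 1.44 in vivo (SE 0.31, adjusted p = 0.00305) and 1.94 in vitro (SE 0.34, adjusted p = 0.00071). The Timm8a1 call was lost without GV 1 (adjusted p = 0.0691) and without GV 2 (adjusted p = 0.0979). Timm8a1 and Timm8a2 are closely related in sequence, and the probe set of Timm8a2 is of a kind that may match several transcripts, so their split is uncertain. Timm8a2 had levels of 7.61, 6.81 and 6.83 in vivo and 6.99 and 7.75 in vitro, against 7.99 and 8.14 in GV arrays. All adult MII arrays lay below GV, and the differences of -0.98 (adjusted p = 0.0766) and -0.69 (adjusted p = 0.262) did not pass. Without the 4 dim arrays Timm8a2 fell in vivo (-1.24, adjusted p = 0.00829). In vitro, with 1 adult MII array left, Timm8a1 differed by -1.80 and Timm8a2 by -1.07. Chchd4, the oxidoreductase of this compartment, differed by -0.02 and -0.76 and did not pass.

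Timm13 did not reach the filter. Its levels stood at 1.83, 1.75 and -0.36 in vivo and 1.11 and 1.24 in vitro, against 6.04 and 6.26 in GV arrays, so that only the GV arrays were above the filter level of 3.07 among the adult arrays. In the fit without a filter it differed by -5.08 in vivo (adjusted p = 0.0082) and -4.97 in vitro (adjusted p = 0.0173). Timmdc1, a complex I assembly factor that entered by its symbol, differed there by -3.61 (adjusted p = 0.0589) and -4.24 (adjusted p = 0.0405).

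**Figure D2:**
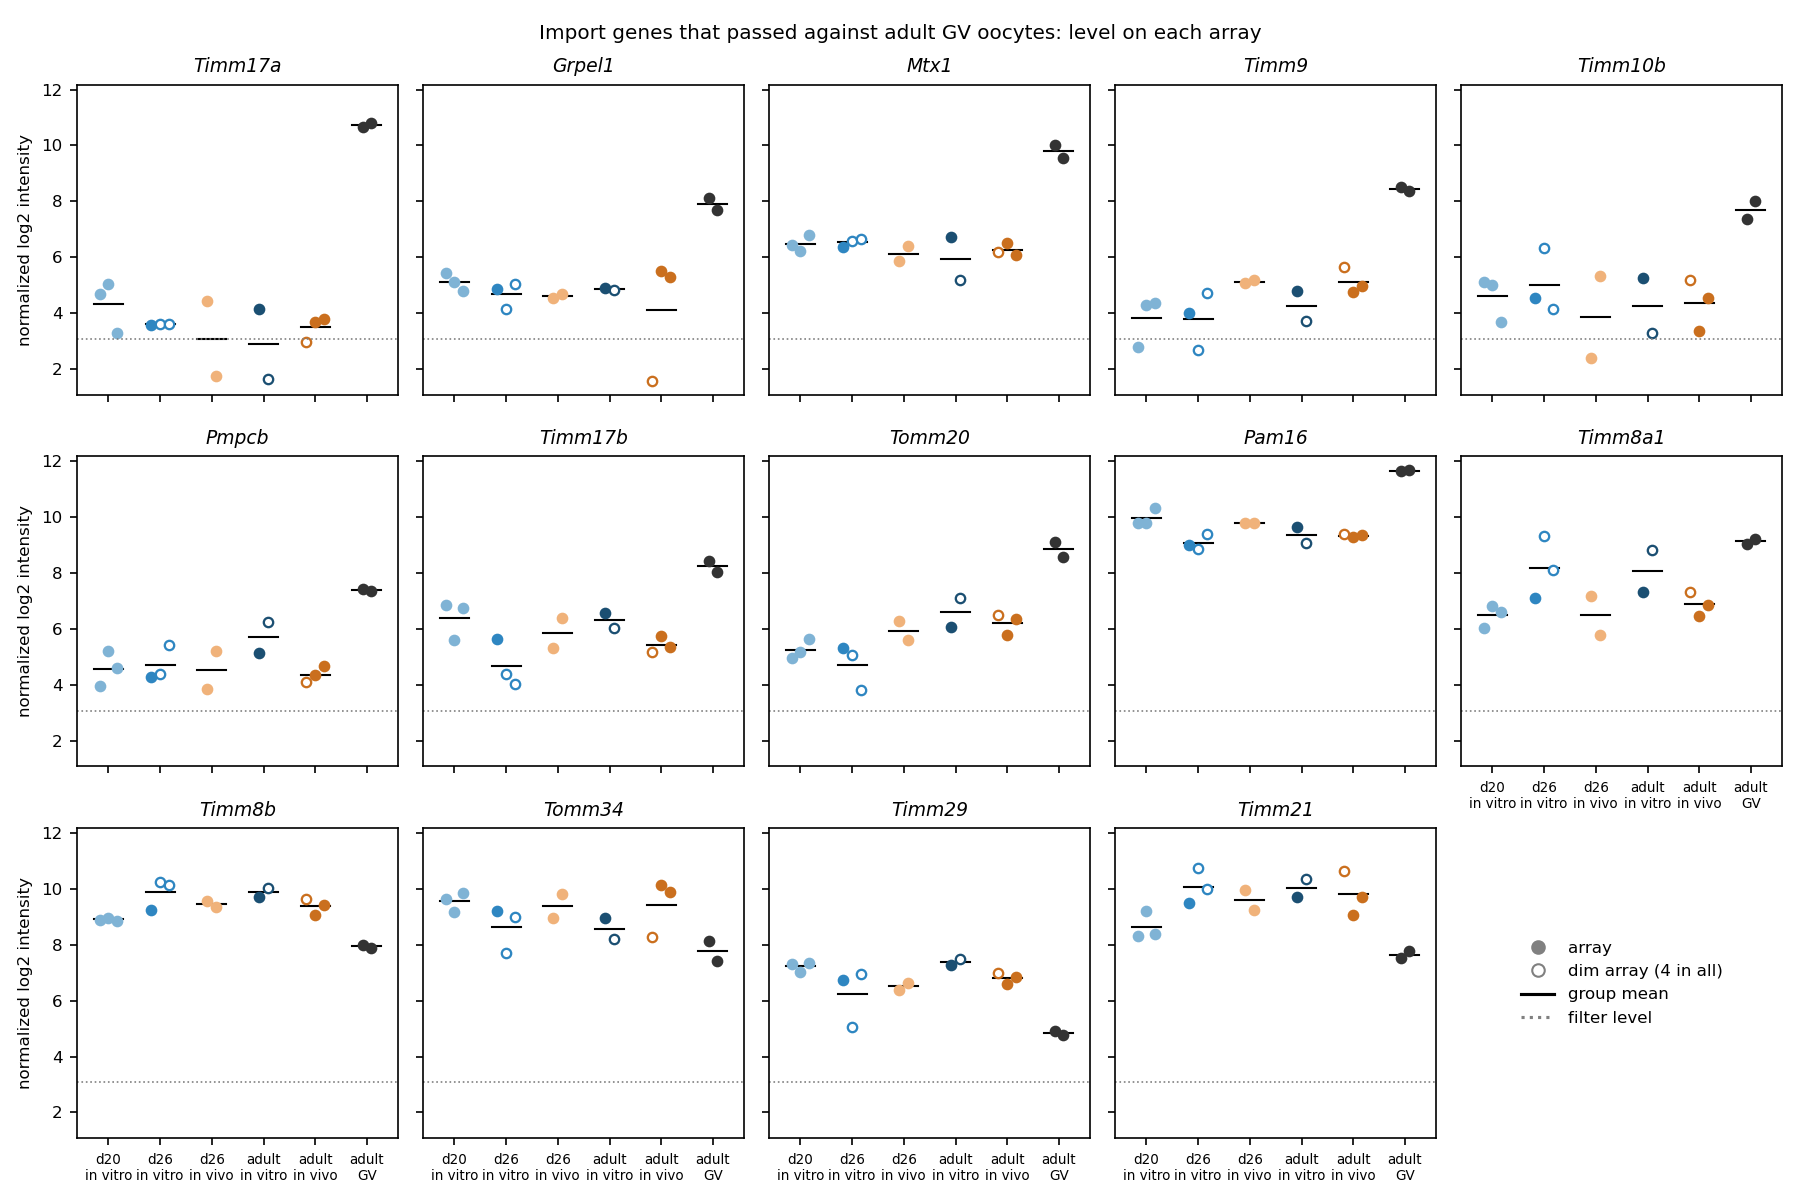
Quantile-normalized log2 level in each of the 15 arrays by group, from d20 in vitro MII to adult GV, with the mean as a bar, for import genes called in either comparison; open circles are dim arrays. Timm17a stands between 1.64 and 4.14 in the adult MII arrays and at 10.66 and 10.80 in the GV arrays, while Timm21, Timm29 and Timm8b stand above both GV arrays in every adult MII array.

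In the TIM23 translocase, 2 of 5 subunits fell and 1 rose in each comparison. Timm17a on chromosome 1, which forms the channel with Timm23, had levels of 2.96, 3.69 and 3.79 in vivo and 4.14 and 1.64 in vitro, against 10.66 and 10.80 in GV arrays. The deposited intensities behind these read 4.69, 20.6 and 17.7 in vivo and 16.2 and 1.46 in vitro, against 3156 and 2985 in GV arrays. The filter level was 3.07, so its fold rests on dim MII signals. The difference was -7.25 in vivo (SE 0.85, adjusted p = 3.83e-05) and -7.84 in vitro (SE 0.93, adjusted p = 5.29e-05).

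Timm17b, its X-linked paralog, also fell. Its levels stood at 5.16, 5.75 and 5.35 in vivo and 6.57 and 6.04 in vitro, against 8.43 and 8.05 in GV arrays, with every adult MII array lower. The difference was -2.83 in vivo (SE 0.56, adjusted p = 0.00167) and -1.94 in vitro (SE 0.62, adjusted p = 0.0286). The in vitro call was lost without either GV array (adjusted p = 0.16 and 0.0874), without adult in vitro 2 (adjusted p = 0.149) and without a filter (adjusted p = 0.0504). The difference between the paralogs was not tested.

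Timm21, which links TIM23 to TOM and to the respiratory chain, rose. Its levels stood at 10.65, 9.08 and 9.71 in vivo and 9.72 and 10.36 in vitro, against 7.51 and 7.77 in GV arrays, and no MII array overlapped GV. The difference was 2.17 in vivo (SE 0.47, adjusted p = 0.00294) and 2.40 in vitro (SE 0.51, adjusted p = 0.00273). The channel protein Timm23 had levels of 11.26, 11.79 and 12.10 in vivo and 11.48 and 11.09 in vitro, against 11.14 and 11.19 in GV arrays. Its differences of 0.55 (adjusted p = 0.153) and 0.12 (adjusted p = 0.802) did not pass. Without the 4 dim arrays Timm23 rose in vivo by 0.78 (adjusted p = 0.0147). Timm50, the presequence receptor of the complex, differed by 0.43 and 0.72.

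In the import motor, 2 of 4 genes fell in each comparison and none rose. Pam16, which regulates the Hsp70 of the motor, had levels of 9.38, 9.28 and 9.36 in vivo and 9.66 and 9.08 in vitro, against 11.66 and 11.68 in GV arrays. Its replicates lay close together, and the difference was -2.33 in vivo (SE 0.27, adjusted p = 3.31e-05) and -2.29 in vitro (SE 0.29, adjusted p = 8.48e-05). Grpel1, the nucleotide exchange factor of that Hsp70, had levels of 1.57, 5.5 and 5.29 in vivo and 4.90 and 4.81 in vitro, against 8.13 and 7.68 in GV arrays. The lowest was a dim array, and without the 4 dim arrays Grpel1 differed by -2.51 in vivo (adjusted p = 0.000296).

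With all arrays the Grpel1 difference was -3.78 in vivo (SE 0.88, adjusted p = 0.00475) and -3.05 in vitro (SE 0.96, adjusted p = 0.0276). It lost its call in vivo without GV 1 (adjusted p = 0.0532), and in vitro without any 1 of the 4 compared arrays (adjusted p = 0.078 to 0.143). Its paralog Grpel2 had levels of 4.21, 4.62 and 5.29 in vivo and 3.29 and 4.12 in vitro, against 5.32 and 4.95 in GV arrays. These overlapped in vivo, and the differences of -0.43 and -1.43 did not pass. Timm44, which anchors the motor at the channel, differed by -0.12 and -0.50 with its representative probe set.

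In the TIM22 translocase, Timm29 rose and Timm22 did not pass. Timm29, a subunit of the human complex, had levels of 7.00, 6.60 and 6.84 in vivo and 7.28 and 7.48 in vitro, against 4.91 and 4.77 in GV arrays. Every adult MII array lay above both GV arrays. The difference was 1.97 in vivo (SE 0.49, adjusted p = 0.00707) and 2.54 in vitro (SE 0.53, adjusted p = 0.00241), and the in vivo call was lost without GV 2 (adjusted p = 0.065). The channel protein Timm22 differed by 0.35 in vivo and 1.47 in vitro.

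Among the processing and insertion genes, 1 of 4 fell in vivo and 0 of 4 passed in vitro. Pmpcb, the catalytic subunit of the presequence peptidase, had levels of 4.09, 4.34 and 4.66 in vivo and 5.14 and 6.26 in vitro, against 7.42 and 7.36 in GV arrays. All lay below GV, and the difference was -3.03 in vivo (SE 0.60, adjusted p = 0.00164) and -1.69 in vitro (SE 0.66, adjusted p = 0.0708). Its partner subunit Pmpca had levels of 3.35, 3.78 and 4.21 in vivo and 4.52 and 4.40 in vitro, against 4.59 and 4.45 in GV arrays. Pmpca differed by -0.74 and -0.06 and did not pass. Immp1l, an inner membrane peptidase, had levels of 11.09, 10.35 and 10.88 in vivo and 10.95 and 11.29 in vitro, against 10.36 and 10.21 in GV arrays. Its differences of 0.49 (adjusted p = 0.249) and 0.83 (adjusted p = 0.0618) did not pass. Oxa1l, the inner membrane insertase, differed by -0.92 and -2.55 (adjusted p = 0.0786 in vitro). Without the 4 dim arrays, with 1 adult in vitro array left, Pmpcb differed by -2.25 in vitro.

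Leaving out the 4 dim arrays gave 15 lower and 5 higher import genes in vivo. In that fit 16.3% of genes were lower and 25.5% higher in vivo. In vitro, adult in vitro 1 was the only MII array left, so calls are not counted. Timm10b differed by -2.44 there.

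Other probe sets of the same genes gave further values. Of the 34 genes, 19 had several probe sets, and of their 34 other probe sets 20 were tested. Of these 20, 8 were lower and 0 higher in vivo, where 11.1% of all tested probe sets were lower and 15.7% higher. In vitro 5 were lower and 0 higher, where 11.7% were lower and 16.0% higher. Tomm22 disagreed between probe sets: 1434420_x_at fell by 4.76 in vivo (adjusted p = 0.00441) and by 3.43 in vitro (adjusted p = 0.0447), where the representative differed by 0.89 and 1.29. For Timm44, 1439371_x_at fell by 2.01 (adjusted p = 0.00953) and 1.61 (adjusted p = 0.048), and 1417670_at fell by 2.53 in vivo (adjusted p = 0.0216). For Timm50, 1455456_a_at, below the filter, differed by -6.28 (adjusted p = 0.00178) and -6.22 (adjusted p = 0.00385) in the fit without a filter, against positive differences for the representative. The other probe set of Timm29, 1452175_at, differed by -1.17 (adjusted p = 0.323) and -1.50 (adjusted p = 0.228), opposite in sign to the representative that rose. The sign or the call thus differed between probe sets of these 4 genes. It also did for Mtx1 above and for Tomm20, Timm10b and Timm17b below, among others.

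Tomm20, Timm10b and Pmpcb had further probe sets that fell. For Tomm20, 1423080_at differed by -4.22 (adjusted p = 0.00399) and 1455357_x_at by -2.16 (adjusted p = 0.0387) in vivo, while 1423081_a_at differed by 0.28 and did not pass. For Timm10b, 1417916_a_at differed by -4.49 in vivo (adjusted p = 0.0039) and -4.65 in vitro (adjusted p = 0.00552). Its probe set 1453461_at did not pass, at -2.36 in vivo (adjusted p = 0.104) and -2.15 in vitro (adjusted p = 0.178). The other probe set of Timm17b, 1460685_at, did not pass either, at -2.65 in vivo (adjusted p = 0.176) and -3.48 in vitro (adjusted p = 0.0993). For Pmpcb, 1429709_at differed by -3.36 in vivo (adjusted p = 0.0165) and -4.0 in vitro (adjusted p = 0.00986), so this probe set fell in both. Timm17a, Timm21, Timm8b, Pam16, Tomm34 and Grpel1 had 1 probe set each.

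**Figure D3:**
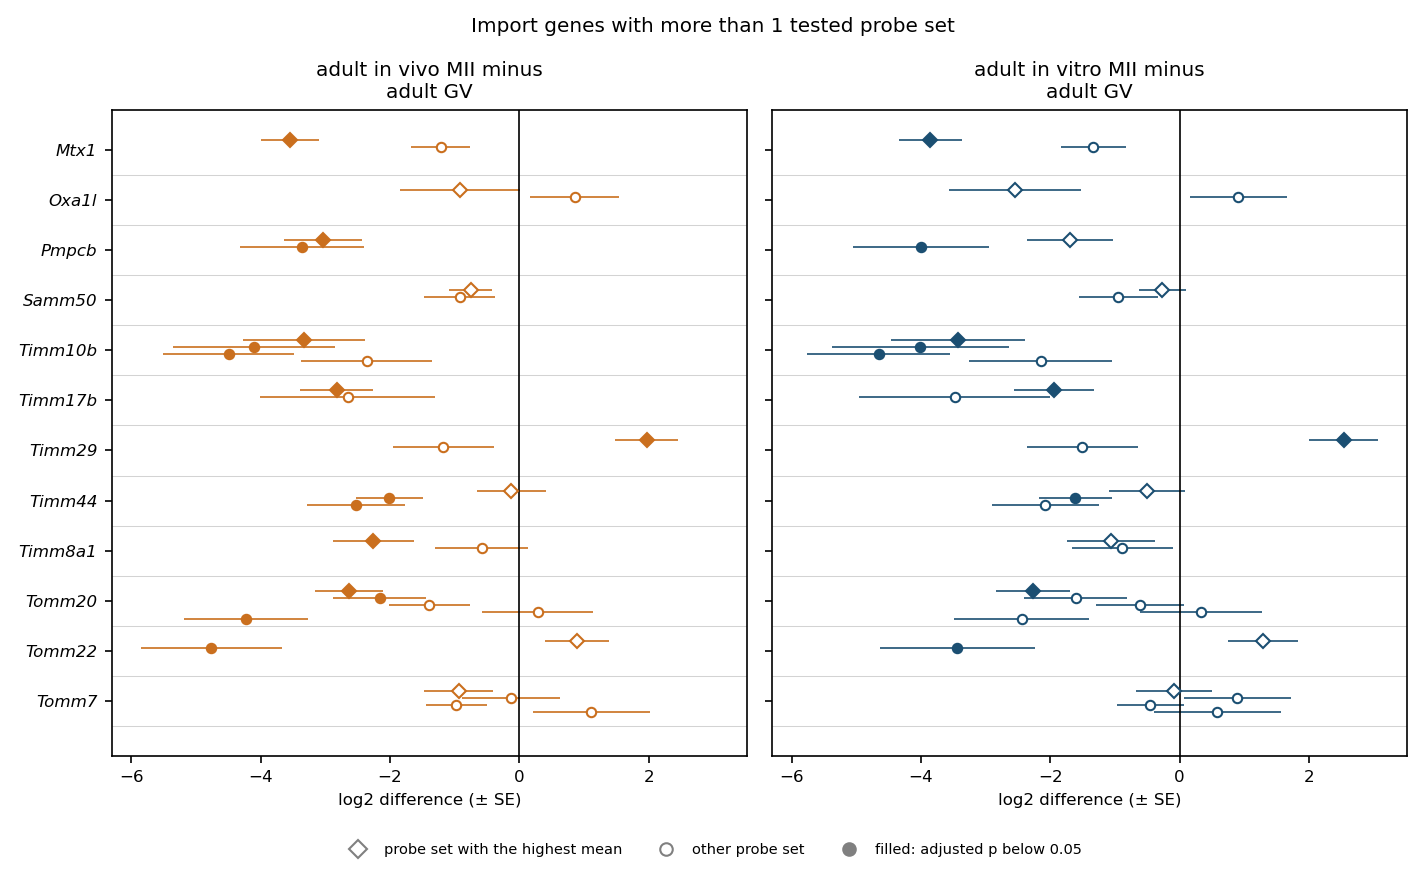
Log2 differences of all tested probe sets of import genes with several, adult in vivo MII minus GV and adult in vitro MII minus GV, with the representative marked. Tomm22 holds a probe set at 0.89 and another at -4.76 in vivo, and the Timm10b probe sets all lie below 0.

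The count of import genes called higher changed with the scaling of the arrays. The median of all genes was 0.26 in vivo and 0.13 in vitro after quantile normalization, -0.19 and -0.52 after scaling each array to a common median, and -0.97 and -1.93 for intensities as deposited. With median scaling Timm21 was the 1 gene that rose in vivo (1.36, adjusted p = 0.0437) and none rose in vitro, and with intensities as deposited none rose in either. Relative to the median of all genes, Timm21 stood at 1.91 in vivo after quantile normalization and at 1.55 under both other scalings. Timm29, Timm8b and Tomm34 were likewise above the median of all genes in both comparisons, after quantile normalization and under the other scalings, Tomm34 by 0.08 in vitro under the latter. Median scaling shifts each array by a constant, so values relative to this median are the same with it and as deposited. Timm17a differed by -7.23 in vivo and -7.89 in vitro after median scaling, and by -8.0 and -9.30 as deposited.

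**Figure D4:**
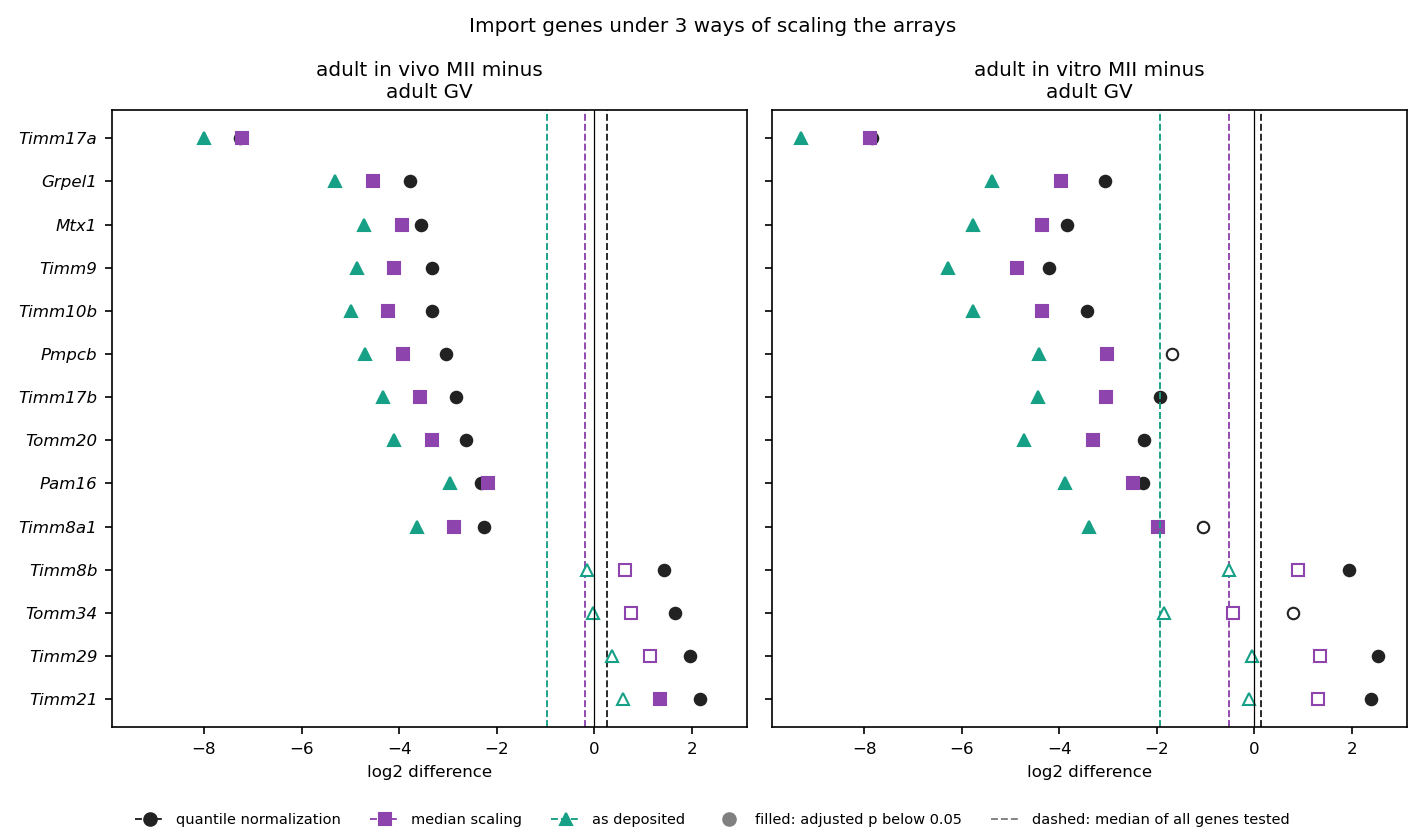
Log2 differences of the import genes under quantile normalization, median scaling and intensities as deposited, with the median of all genes as a line, for adult in vivo MII minus GV and adult in vitro MII minus GV. All points shift with the scaling: Timm8b in vivo stands at 1.44, 0.63 and -0.15, and Timm17a stays below -7 in all of them.

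Across all 13 MII arrays of the 3 ages the separation from the 2 adult GV arrays held for 14 of the 30 tested genes. In every MII array 11 were lower (Pam16, Timm8a2, Mtx1, Timm10, Tomm20, Timm17b, Grpel1, Pmpcb, Timm9, Timm10b and Timm17a), where 17% of 12028 genes were lower throughout. In every MII array 3 were higher (Timm21, Timm8b and Timm29), where 20.6% of genes were higher throughout. Timm17a ranged between 1.64 and 5.02 over the MII arrays, with a median of 3.62, against 10.66 and 10.80 in GV arrays. Pam16 ranged between 8.85 and 10.33, with a median of 9.39, against 11.66 and 11.68 in GV arrays. In the younger mice Timm17a averaged 4.32 ± 0.93 in d20 in vitro, 3.60 ± 0.02 in d26 in vitro and 3.07 ± 1.90 in d26 in vivo MII arrays (SD, n = 3, 3 and 2), against 10.73 ± 0.10 in GV arrays (n = 2). Mtx1 averaged 6.47 ± 0.31, 6.53 ± 0.14 and 6.12 ± 0.37 in the same MII groups, against 9.79 ± 0.34 in GV arrays. Timm29 averaged 7.23 ± 0.17, 6.26 ± 1.03 and 6.51 ± 0.16, against 4.84 ± 0.10 in GV arrays. The d26 and d20 means of these genes lay on the same side of GV as the adult MII means. Tomm34 and Timm8a1 overlapped with GV over these arrays, since Timm8a1 reached 9.32 in a dim d26 array. The GV arrays were of adults only, so for d20 and d26 oocytes age and stage cannot be told apart in this comparison.

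Between MII groups, 0 of the 30 import genes passed in limma in any of 7 comparisons. For adult in vitro minus adult in vivo MII, 0% of all genes were called in either direction. There 1801 of 22519 tested probe sets had an unadjusted p below 0.05, and 1 import gene did. This was Pmpcb, 5.14 and 6.26 in vitro against 4.09, 4.34 and 4.66 in vivo, a difference of 1.34 (SE 0.60, adjusted p = 0.615). The groups did not overlap for 6 higher and 1 lower import genes, where 9.54% and 9.18% of genes did not. For d26 in vitro minus d26 in vivo MII, 4 import genes and 1531 of 22519 tested probe sets had an unadjusted p below 0.05. Of all genes, 0.0582% were called lower and 0% higher. Timm10 differed by -2.98 (SE 0.86, adjusted p = 0.383), with levels of 6.44, 2.06 and 5.25 in vitro against 7.52 and 7.61 in vivo. The lowest levels were those of the dim arrays. Without the 4 dim arrays, with d26 in vitro 1 alone left in its group, the difference was -1.12. Timm8a1 (1.68), Pam16 (-0.71) and Tomm20 (-1.21) were the others. With the same 1 d26 in vitro array, without the dim arrays, Timm8a1 differed by 0.60, Pam16 by -0.78 and Tomm20 by -0.63.

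Averaged over d26 and adult, the in vitro minus in vivo difference gave 0 calls, against 0.224% of genes lower and 0.0249% higher. An unadjusted p below 0.05 was found for 4 import genes and for 2791 of 22519 tested probe sets. Timm8a1 differed by 1.44 (SE 0.44, adjusted p = 0.225). Without the 4 dim arrays, with 1 array left in each in vitro group, it differed by 0.64. Timm10 differed by -1.80, Timm9 by -1.10 and Immp1l by 0.44, and without those arrays by -0.83, -0.61 and 0.29. The test of whether the in vitro minus in vivo difference itself differed between adult and d26 gave 0 calls (0% of genes). Of 22519 tested probe sets, 840 had an unadjusted p below 0.05. Of the import genes 2 did, Timm17b (2.05) and Tomm20 (1.58). Without the dim arrays, again with 1 array in each in vitro group, these were 1.23 and 0.62.

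By age, in vitro matured MII oocytes gave no call either. For d26 minus d20, 9 import genes and 2581 of 22519 tested probe sets had an unadjusted p below 0.05. The smallest adjusted p of an import gene was 0.402, with 0% of all genes called. For adult minus d26, 4 import genes and 1654 probe sets had such an unadjusted p. The smallest adjusted p was 0.392, with 0% of genes called. For adult minus d20, 8 import genes and 3971 probe sets had such an unadjusted p. The smallest adjusted p was 0.179, with 0.00831% of genes called higher and 0.0249% lower. Timm21 averaged 8.64 ± 0.49 at d20, 10.08 ± 0.63 at d26 and 10.04 ± 0.45 in adults (SD, n = 3, 3 and 2), and Timm8b 8.91 ± 0.06, 9.88 ± 0.54 and 9.88 ± 0.22. Both genes had their lowest MII mean at d20. Timm21 differed by 1.44 between d26 and d20 and by 0.86 without the dim arrays, and Timm8b by 0.97 and 0.35. Pam16 averaged 9.98 ± 0.31 at d20, 9.08 ± 0.28 at d26 and 9.37 ± 0.41 in adults. Tomm20 averaged 5.26 ± 0.34, 4.72 ± 0.80 and 6.59 ± 0.73, and Timm17b 6.39 ± 0.70, 4.69 ± 0.84 and 6.30 ± 0.37. Without the dim arrays Pam16 differed by -0.96 and Timm17b by -0.75 between d26 and d20. The d26 means rest on 2 dim arrays of 3, so the values without dim arrays rest on 1 d26 array and are not replicated. The part of brightness in these values was not tested.

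**Figure D5:**
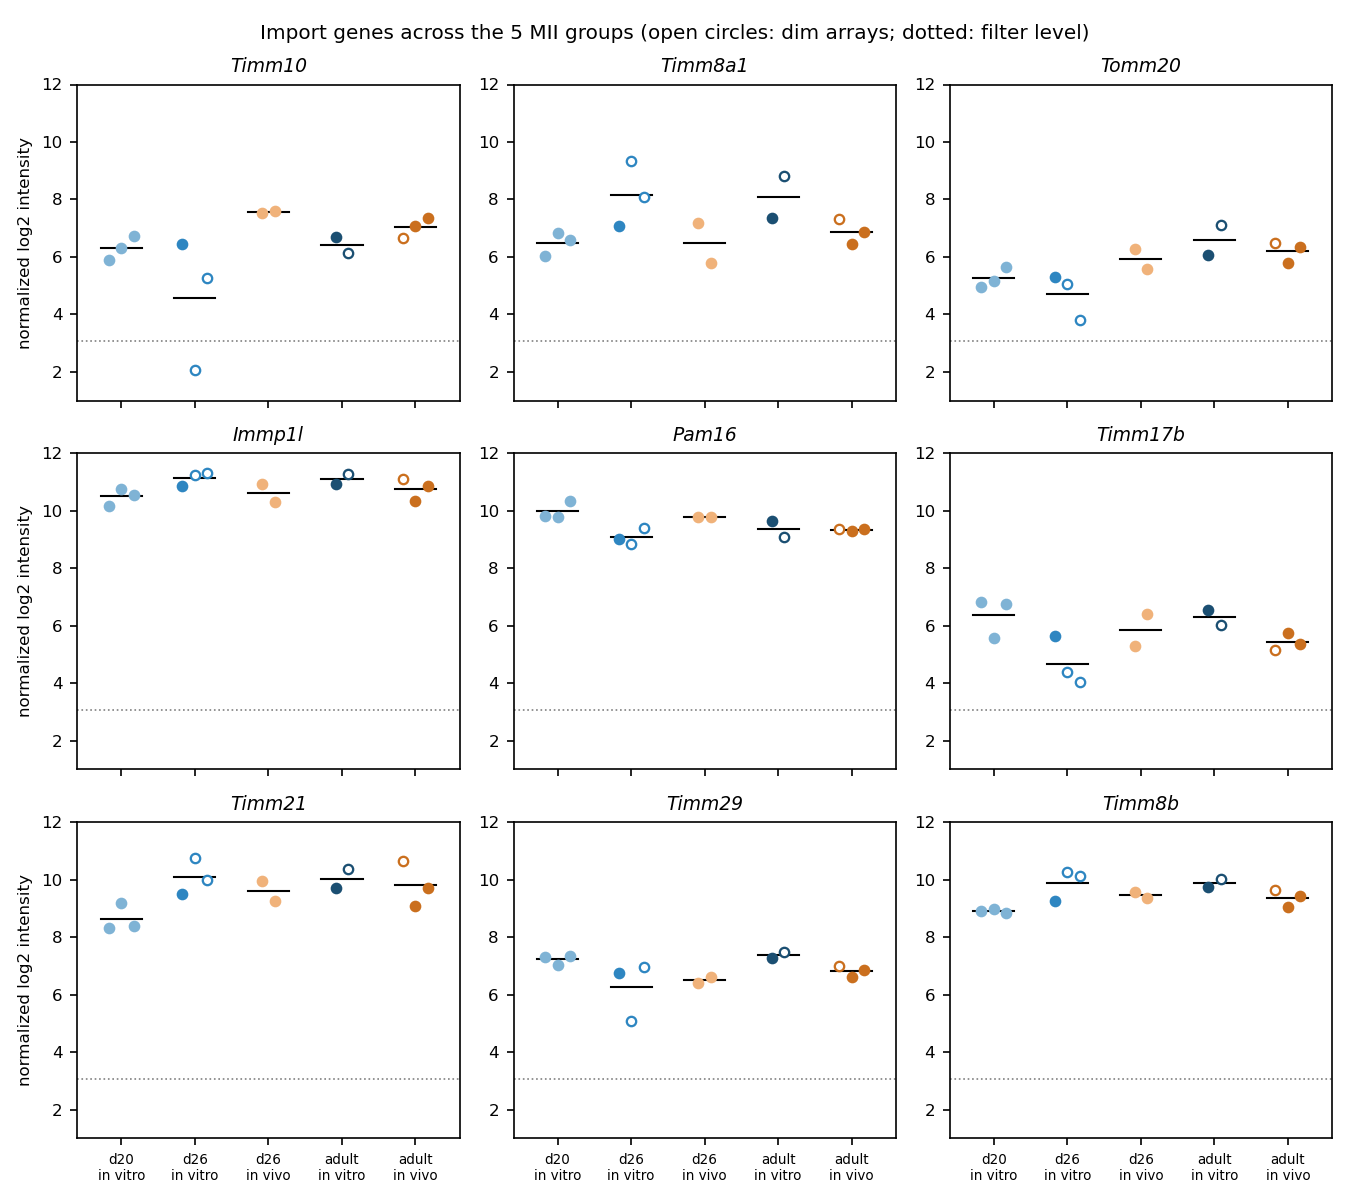
Quantile-normalized log2 level in each MII array for the 9 import genes with an unadjusted p below 0.05 in at least 2 of the 7 comparisons between MII groups, chosen after their values were seen; bars are group means, open circles dim arrays and the dotted line the filter level. Timm21 and Timm8b have their lowest mean in d20 in vitro arrays, and the extreme d26 in vitro values of Timm10 and Timm8a1 lie on dim arrays.

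Partner genes of the import machinery outside the naming rule were read from a list of 26, of which 25 were found and 23 tested. In vivo 9 fell and 2 rose against GV, and in vitro 9 fell and 3 rose, with medians of -0.86 and -0.69. Of all genes 12.3% were lower and 18.3% higher in vivo, and 12.9% and 18.4% in vitro, with medians of 0.26 and 0.13. The genes that fell were the same 9 in both comparisons, which share the 2 GV arrays. Immt, the core of the MICOS complex that holds cristae and binds Samm50, differed by -4.16 in vivo and -3.81 in vitro, and its partners Chchd6 by -2.98 and -2.72 and Apoo by -2.39 and -2.22. Gfer, which reoxidizes Chchd4, differed by -2.96 and -2.34. Among matrix enzymes, the presequence-degrading Pitrm1 differed by -3.77 and -4.01, the peptidase Mipep by -2.40 and -2.76, and the chaperone Trap1 by -3.36 and -3.93. Dnajc15, a J-protein of the motor, differed by -3.79 and -2.79, and Mtx2, the partner of Mtx1, by -1.92 and -2.88. Of these 9, Mipep and Trap1 in both comparisons, Mtx2 in vivo and Dnajc15 in vitro lost their call in 3 to 5 of up to 25 other settings.

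Romo1, a small inner membrane protein, rose by 1.5 in vivo and 1.53 in vitro, Mtx3 by 1.46 and 2.16, and Micos10 by 1.63 in vitro. The in vivo call of Mtx3 (adjusted p = 0.0487) held in 7 of 25 other settings, its in vitro call in 21, and that of Micos10 in 21. The Hsp70 of the motor, Hspa9, differed by 0.37 and 0.11, and the matrix chaperonins Hspd1 by -0.64 and 0.18 and Hspe1 by -0.24 and 0.47, none past the test. Mtx2 was the 1 partner called between MII groups, at -3.61 in d26 in vitro minus d26 in vivo (adjusted p = 0.0348) and -2.28 in the in vitro minus in vivo difference averaged over d26 and adult (adjusted p = 0.0301). The first call was lost in 14 of 25 other settings (adjusted p up to 0.91), the second in 13 of 25 (adjusted p up to 0.249).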

How the data were processed

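Per the labels, poly(A) RNA from pools of 150 oocytes was amplified in 2 cycles and hybridized to Affymetrix arrays. The authors deposited 1 linear intensity per probe set and array, from the MAS5 software according to what is stated per the submitters' processing notes. Which version of it was run, and to what target arrays were scaled, is not given in the sources used here. Array medians differed, so log2 values of the deposited intensities were quantile normalized in R 4.3.3 with limma 3.58.1 after 64 control probe sets were left out of 45101. The upper 50% of probe sets by mean level (22519 of 45037, level 3.07 and above) were tested with lmFit and eBayes (intensity trend) on 6 groups with 9 residual degrees of freedom, with Benjamini-Hochberg adjustment over all tested probe sets within a comparison and a call at adjusted p below 0.05. All printed p-values of genes come from limma. Cell type markers were read from the fit without a filter. The procedure was tested on simulated data.

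Names came from the platform annotation, updated with a GRCm38.p6 RefSeq table: 34945 probe sets had 1 symbol, 932 several and 9160 none. The probe sets of Tomm5 and Tomm6 carried several symbols and were not analysed here. Every import gene is accounted for. Values in every array are given for members called, up to the 10 largest differences in a comparison, and for paralog pairs (and for Tomm34, the 1 other member called). Members and lists were chosen with earlier results of these data known. The labels do not say that arrays of a group came from separate animals, so each p-value reflects sample-to-sample spread that may be partly technical, and the small number of arrays limits precision. Replicates were numbered in record order, which pairs nothing. No 2 arrays held the same values: at most 0.00222% of values were identical between any of the 105 pairs. Alternatives were other scalings, filters, variance models, a pseudocount of 16, array weights, the compared arrays alone, plain _at probe sets where a gene has one, the title numbers (up to 12 or above, meaning not known) as a block, no dim arrays, and each array left out.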

Additional observations from a re-analysis of the deposited data

How the results depend on the processing

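Calls against GV were recomputed under 26 other settings. With intensities as deposited, 0 import genes were higher in vivo and 0 in vitro, 19 were lower in vitro and 19 were called in vitro. Of all genes 0.0915% were then higher in vivo, and 0.0499% higher and 28.6% lower in vitro. With median scaling, 1 was higher in vivo, 0 were higher in vitro and 15 were lower in vitro. Of all genes 6.53% were then higher in vivo, and 6.97% higher and 21.2% lower in vitro. With a plain _at probe set for each member that has one, 28 members were tested. Of these, 7 were lower and 4 higher in vivo, and 4 lower and 3 higher in vitro (7 called). In the main fit, from which these calls were read, 12.3% of all genes were lower and 18.3% higher in vivo. In vitro 12.9% were lower and 18.4% higher. Leaving out 1 array at a time gave 2 to 5 higher and 7 to 13 lower in vivo (10 to 18 called), and 3 to 4 higher and 4 to 9 lower in vitro (7 to 13 called). Over those settings 10.1% to 20.2% of all genes were higher and 7.09% to 13.7% lower in vivo, and 11.9% to 19.9% and 7.74% to 14.8% in vitro. The fewest were 2 higher in vivo without GV 2, and in vitro 4 lower and 7 called without GV 1 and 5 lower without GV 2 or without adult in vitro 2. As deposited, signs turned for Timm8b (-0.15) and Tomm34 (-0.027) in vivo, for Timm21 (-0.11), Timm8b (-0.52) and Timm29 (-0.0588) in vitro, and for the partners Mtx3 (-0.0168 in vivo, -0.28 in vitro) and Romo1 (-0.26 in vitro); Timm50 in vitro was then lower (-2.25, adjusted p = 0.0482). That setting leaves the brightness of the arrays in the values; beyond this the cause was not tested.

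Of 25 calls of import genes against GV, 8 were past the threshold in every setting run: Timm17a, Pam16 and Timm9 in both comparisons, and Tomm20 and Pmpcb in vivo. The other 17 were lost in some setting, and none turned its sign when 1 array was left out. The 7 comparisons between MII groups gave 0 import genes in each setting. Levels near the filter level limit the folds of dim probe sets such as that of Timm17a. No paired analysis was possible because replicates were numbered in record order and share no stated animal or day. With the title numbers as a block, 13 import genes were called in vivo (10 lower, 3 higher) and 11 in vitro (8 lower, 3 higher). Of 12028 genes, 1424 were then lower and 2103 higher in vivo, and 1531 and 2145 in vitro. Tomm34 in vivo lost its call in this setting.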
